A study of Mus musculus with 4 samples.

Results

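The wound-edge protease and matrix remodeling genes Plaur, Plau, Mmp3, Mmp9, Mmp10, Mmp13, Mmp14, Timp1 and Tnc were examined, which are 9 of the 54752 genes listed for each library, taken by gene symbol. Total RNA of epidermis from 4 C57BL/6 mouse pups at postnatal day 0 had been sequenced, 1 library per pup. The comparison was of 2 Skiv2l fl/fl K14-Cre pups, called knockout here, with 2 Skiv2l ctl pups, called control. In Skiv2l fl/fl K14-Cre pups both copies of Skiv2l, the gene for the helicase of the cytoplasmic RNA exosome, are flanked by loxP sites, and Cre is made from the keratin 14 promoter, so that keratinocytes lose the gene while other cells of the epidermal sheet keep it. Skiv2l ctl pups are littermates of the genotypes Skiv2l fl/fl, Skiv2l fl/+ or Skiv2l fl/+ K14-Cre, and which of these each control carried is not given per sample. The pups are separate animals, and no treatment is listed for either group.

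Wounded epidermis opens a path through fibrin and matrix with secreted and membrane-bound proteases. Urokinase (Plau) bound to its receptor (Plaur) turns plasminogen into plasmin at the cell surface, plasmin and other proteases activate the secreted precursors of matrix metalloproteinases (Mmp3, Mmp9, Mmp10, Mmp13), the membrane-anchored Mmp14 cleaves collagen and activates Mmp2, and Timp1 inhibits most of these metalloproteinases. Tenascin-C (Tnc) is a matrix glycoprotein that is laid down in healing wounds and in developing skin.

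The libraries held 5.843 to 6.274 aligned gigabases each, calculated as coverage divided by FPKM. FPKM counts fragments per length of transcript and per size of library, so levels of different genes can be set side by side on this scale. Skiv2l itself (chromosome 17, 34839228 to 34850210, minus strand, GRCm38) had an FPKM of 19.3 and 19.1 in control and 10.8 and 8.55 in knockout epidermis, with a log2 fold change of -0.92 ± 0.12 (SE, limma adjusted p = 0.00368). The keratinocyte markers Krt5, Krt14, Krt10, Krt1 and Trp63 summed to 23852 to 27363 FPKM in each library, but single markers moved within that sum. Krt14 had 1736 and 1812 FPKM in control and 7381 and 7312 in knockout epidermis (log2 fold change 2.05, limma adjusted p = 0.000171). Krt1 was called lower (log2 fold change -0.51, limma adjusted p = 0.0401, and 0.177 after median scaling), and the other 3 were not called. Protein-coding genes that passed 0.5 FPKM in 1 or more libraries, 13609 in all, were tested with limma on log2(FPKM + 1), and a gene was called at a Benjamini-Hochberg adjusted p under 0.05 over all of them. Of these genes 1223 were called higher in knockout epidermis and 3455 lower, and after scaling of the libraries to a common median 1894 were called higher and 1623 lower. The median log2 fold change of all tested genes was -0.20, against -0.03 after this scaling, so a log2 fold change close to -0.20 was that of the middle gene. An exact permutation test of 2 pups against 2 cannot give a two-sided p below 0.333, and the single-gene p-values therefore rest on the spread that limma shares across genes.

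Among the 9 members, Plaur was higher and Mmp14 was lower in knockout than in control epidermis. The call of Mmp14 was lost after median scaling (log2 fold change -0.17, limma adjusted p = 0.202). Mmp10 stayed under the filter, and of the 8 members tested 1 was called higher, 1 lower and 6 neither. Of all tested genes 8.99% were called higher and 25.4% lower, and after median scaling 13.9% and 11.9%. In 4 members, Plaur, Mmp3, Mmp9 and Mmp13, both knockout libraries were above both controls, as in 18.2% of all tested genes. Mmp14 had both below both controls, as had 55.3% of all tested genes, and the other 4 members overlapped between genotypes. The median log2 fold change of the 8 tested members was 0.39. Mmp3 and Mmp9 passed the 0.5 FPKM filter only through the knockout libraries, and Timp1 only through knockout replicate 2. Genes this low in control epidermis were tested only if a knockout library was higher, so the count of 4 and the median lean that way. In bulk epidermis a lower level can come from fewer cells of a type or from less RNA per cell, and these cannot be told apart.

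**Figure D1:**
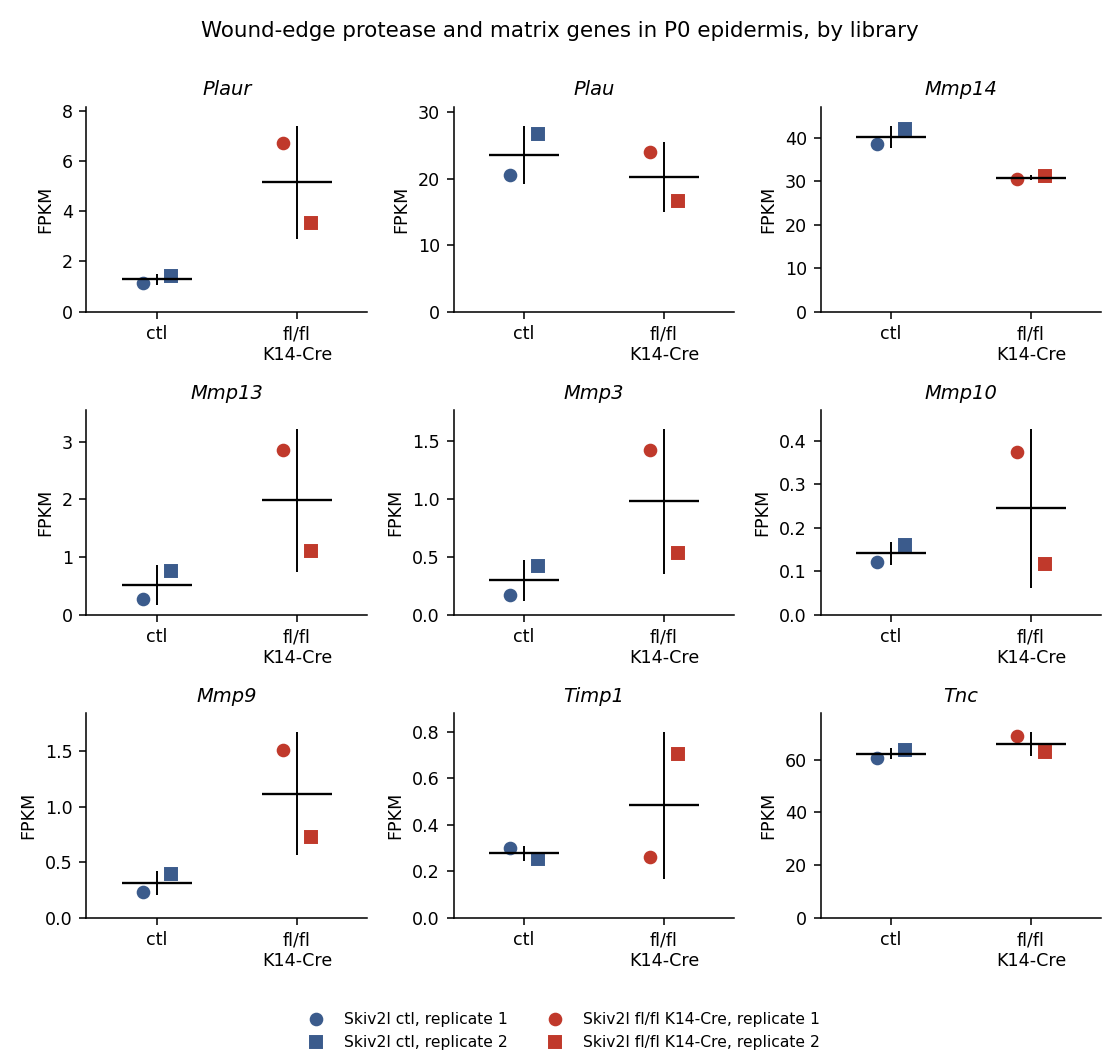
FPKM (y axis) of each member in each of the 4 libraries, grouped by genotype on the x axis, with circles for replicate 1 and squares for replicate 2. Horizontal lines are group means and vertical lines are 1 SD (n = 2), every y axis starts at 0, and Plaur, Mmp3, Mmp9 and Mmp13 show both knockout points above both control points, with replicate 1 the higher one.

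Levels separated abundant members from scarce ones. Tnc, Mmp14 and Plau had mean control levels of 62.2, 40.2 and 23.6 FPKM, in that order, with no overlap between neighbours. Together they gave 98.2% and 97.5% of the summed member FPKM in the controls and 90.4% and 94.3% in knockout epidermis. Plaur followed at a mean of 1.28 FPKM, and the remaining members averaged 0.141 to 0.514 FPKM in the controls. In knockout epidermis the members stood in the same order of mean level, and the neighbours from Mmp13 down to Mmp10 overlapped in their ranges. The summed FPKM of the 6 scarcer members was 2.22 and 3.42 in control and 13.2 and 6.73 in knockout epidermis, whereas all 9 members summed to 122 and 136 in control and 137 and 117 in knockout epidermis.

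Promoter sequence is shown for 4 scarce members because their windows hold the letters of an AP-1 site, the element bound by Fos and Jun proteins, close to the start. RefSeq windows on GRCm38.p6, from 250 bases before to 50 bases after each annotated start, were on hand for 7 of the 9 members, all but Mmp9 and Plau. The letters TGAGTCA or TGACTCA, which are reverse complements of each other, occurred in the windows of Mmp3, Mmp10, Mmp13 and Plaur and in 5.2% of all 32851 windows, or 1.88% when only the 100 bases before the start were read. They were not found in the windows of Mmp14, Timp1 and Tnc. The first letter of the match lies 46 bases before the start in Mmp3, 63 in Mmp10, 35 in Mmp13 and 69 in Plaur. TATAAA, searched on both strands and found in 13.6% of all windows, occurred in Mmp3, Mmp10, Mmp13 and Tnc. A match is a description of the letters and no evidence that a protein binds there. The 100 bases before the RefSeq start are given 5′ to 3′ on the gene's strand, all plus, with capitals for the AP-1 letters and for TATAAA.
Mmp3, chr9:7445722-7445821: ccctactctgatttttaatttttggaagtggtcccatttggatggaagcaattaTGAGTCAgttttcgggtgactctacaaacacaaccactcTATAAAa
Mmp10, chr9:7502242-7502341: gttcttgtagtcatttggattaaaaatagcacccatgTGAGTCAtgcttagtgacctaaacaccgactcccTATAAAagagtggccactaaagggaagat
Mmp13, chr9:7272414-7272513: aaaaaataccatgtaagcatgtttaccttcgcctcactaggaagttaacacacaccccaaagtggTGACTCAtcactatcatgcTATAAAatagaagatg
Plaur, chr7:24462383-24462482: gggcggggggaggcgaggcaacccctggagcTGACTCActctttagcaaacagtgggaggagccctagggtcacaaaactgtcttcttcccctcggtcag

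Plaur (ENSMUSG00000046223.10, chromosome 7, 24462484 to 24475968, plus strand), the receptor that holds urokinase at the cell surface, had an FPKM of 1.13 and 1.43 in control and 6.74 and 3.55 in knockout epidermis. The knockout libraries both exceeded both controls, and replicate 1 was the higher of them. The mean went from 1.28 ± 0.217 to 5.15 ± 2.26 FPKM (SD, n = 2), a ratio of 4.02, and the log2 fold change of (FPKM + 1) was 1.38 (SE 0.25, 95% interval 0.76 to 2.0, limma adjusted p = 0.0103). Plaur was called under each other scaling, filter and pseudocount tried with all 4 libraries, and the call was lost without control replicate 1 (limma adjusted p = 0.0961) and without control replicate 2 (limma adjusted p = 0.0763). Its promoter window holds the AP-1 letters printed above and no TATAAA.

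Plau (ENSMUSG00000021822.3, chromosome 14, 20836660 to 20843385, plus strand), the gene of urokinase, was abundant in both genotypes. It had an FPKM of 20.5 and 26.7 in control and 24.1 and 16.6 in knockout epidermis, so the genotypes overlapped. The log2 fold change was -0.22 ± 0.20 (SE, 95% interval -0.70 to 0.26, limma adjusted p = 0.41), and it was -0.01 after median scaling. Receptor and ligand stood in another ratio in each genotype, with Plaur FPKM at 5.5% and 5.37% of Plau FPKM in control and at 28% and 21.4% in knockout epidermis.

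Mmp13 (ENSMUSG00000050578.10, chromosome 9, 7272514 to 7283331, plus strand), the interstitial collagenase of mouse wounds, was the most abundant of the secreted metalloproteinases among the members. Its FPKM was 0.271 and 0.758 in control and 2.85 and 1.1 in knockout epidermis, with the higher control below the lower knockout library. The ratio of means was 3.84, and the log2 fold change of 0.93 did not pass the test (SE 0.31, 95% interval 0.17 to 1.69, limma adjusted p = 0.0639), except with quantile normalization (adjusted p = 0.0394), with the replicate number as a block (adjusted p = 0.041) and without knockout replicate 2 (adjusted p = 0.0205).

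Mmp3 (ENSMUSG00000043613.8, chromosome 9, 7445822 to 7455975, plus strand) encodes stromelysin-1, which cleaves many matrix proteins and activates other metalloproteinases. It had an FPKM of 0.168 and 0.423 in control and 1.42 and 0.537 in knockout epidermis. The genotypes did not overlap, but knockout replicate 2 lay close to the higher control. Its log2 fold change was 0.58 ± 0.25 (SE, 95% interval -0.02 to 1.18, limma adjusted p = 0.114), and it passed the test in 1 alternative, without knockout replicate 2 (adjusted p = 0.0358).

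Mmp10 (ENSMUSG00000047562.3, chromosome 9, 7502352 to 7510240, plus strand) encodes stromelysin-2, a close relative made by migrating keratinocytes. It was scarce throughout, with an FPKM of 0.122 and 0.16 in control and 0.374 and 0.116 in knockout epidermis. Knockout replicate 1 was above both controls and replicate 2 below both, and Mmp10 was not tested because no library passed 0.5 FPKM. When transcripts were read in 75-base stretches, 3.76% of those of Mmp3 and 3.94% of those of Mmp10 occurred in the other gene of the pair, and 0 of those of Mmp13 in any other gene.

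Mmp9 (ENSMUSG00000017737.2, chromosome 2, 164940780 to 164955850, plus strand) encodes gelatinase B, which digests denatured collagen and basement membrane collagen. Its FPKM was 0.235 and 0.393 in control and 1.51 and 0.729 in knockout epidermis, and the genotypes did not overlap. The log2 fold change was 0.67 ± 0.21 (SE, 95% interval 0.15 to 1.19), and its limma adjusted p of 0.0544 missed the threshold. It came under the threshold with a pseudocount of 0.1 (adjusted p = 0.045), with TPM (0.0465), with median scaling (0.0472), with quantile normalization (0.0254), with the replicate block (0.0468) and without knockout replicate 2 (0.0253). With the pseudocount of 0.1 the log2 fold changes were 1.39 for Mmp3, 1.51 for Mmp9 and 1.74 for Mmp13, since adding 1 to an FPKM this low shrinks the ratio.

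Neutrophils also make Mmp9 and Plaur, and markers of neutrophils were read beside them. Of the 7 neutrophil markers, Ly6g and Elane were listed at 0 in all libraries and Mpo was listed at 0 in 3, with 0.0615 FPKM in knockout replicate 1. The summed FPKM of the list was 0.582 and 0.818 in control and 7.22 and 5.88 in knockout epidermis. In the knockout libraries almost all of this came from Cxcr2, a chemokine receptor, at 6.51 and 5.56 FPKM, against 0.127 and 0.208 in control epidermis, where the other markers held most of the sum. Cxcr2 was the 1 marker of the list that passed the filter and was called higher (log2 fold change 2.59, SE 0.14, limma adjusted p = 0.000202). The other 6 markers stayed under the filter, and Cxcr2 passed it only through the knockout libraries. The part of Cxcr2 in the levels of Mmp9 and Plaur was not tested.

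Mmp14 (ENSMUSG00000000957.11, chromosome 14, 54431612 to 54445364, plus strand), the membrane-type collagenase that also activates Mmp2, fell in knockout epidermis. It had an FPKM of 38.5 and 42 in control and 30.4 and 31.2 in knockout epidermis, and the knockout values lay close together and below both controls. The mean went from 40.2 ± 2.52 to 30.8 ± 0.57 FPKM (SD, n = 2), a log2 fold change of -0.37 ± 0.09 (SE, 95% interval -0.58 to -0.16, limma adjusted p = 0.0217). The median over all tested genes was -0.20, and the call of Mmp14 was lost with median scaling (log2 fold change -0.17, limma adjusted p = 0.202), with quantile normalization (-0.29, adjusted p = 0.0523) and without control replicate 1 (adjusted p = 0.0849) or control replicate 2 (adjusted p = 0.145).

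Mmp2, gelatinase A, the precursor that Mmp14 activates, fell as well. It had an FPKM of 6.1 and 6.48 in control and 2.49 and 2.09 in knockout epidermis, a log2 fold change of -1.15 ± 0.12 (SE, limma adjusted p = 0.00168). The FPKM of Mmp14 was 6.31 and 6.48 times that of Mmp2 in control and 12.2 and 14.9 times in knockout epidermis. Dermal fibroblasts make both genes, and the 7 fibroblast markers summed to 61.6 and 69.3 FPKM in control and to 22 and 25.1 in knockout epidermis. Most of that sum was Dcn, the gene of decorin, which fell (log2 fold change -1.60, limma adjusted p = 0.000678), as did Col1a2 (log2 fold change -0.61, limma adjusted p = 0.0332, lost without either control or knockout replicate 2, at 0.071, 0.177 and 0.111), while Col1a1 was not called, with 0.614 and 0.891 FPKM in control and 1.27 and 0.585 in knockout epidermis. Pdgfra, the receptor gene among these markers, went the other way, with 0.299 and 0.25 FPKM in control and 0.789 and 0.668 in knockout epidermis (log2 fold change 0.44, limma adjusted p = 0.0601, and 0.047 after median scaling), both knockout values above both controls. Of the 5 fibroblast markers tested, 0 were called higher and 2 lower (0% and 40%, beside 8.99% and 25.4% of all tested genes). After median scaling 1 of these markers was called higher and 1 lower. Pdgfra passed the filter only through the knockout libraries. The part of fibroblast RNA in the lower Mmp14 and Mmp2 was not tested.

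Timp1 (ENSMUSG00000001131.11, chromosome X, 20870166 to 20874735, plus strand), a secreted inhibitor of metalloproteinases, was among the scarce members. It had an FPKM of 0.3 and 0.254 in control and 0.26 and 0.707 in knockout epidermis, so 1 library, replicate 2, stood above the others. The log2 fold change was 0.20 ± 0.19 (SE, 95% interval -0.26 to 0.66, limma adjusted p = 0.434), and without replicate 2 it was -0.02. Timp1 lies within Syn1, which is annotated on the opposite strand, with 0 exonic bases in common.

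Tnc (ENSMUSG00000028364.15, chromosome 4, 63959785 to 64047015, minus strand) was the most abundant member in every library. It had an FPKM of 60.7 and 63.7 in control and 69.1 and 62.7 in knockout epidermis, and the genotypes overlapped. Its log2 fold change was 0.08 ± 0.09 (SE, 95% interval -0.13 to 0.30, limma adjusted p = 0.49). After median scaling it was 0.29 with an adjusted p of 0.0452, and Tnc then counted among the genes called higher. Exons of Tnc share 176 bases with the non-coding gene 8030451A03Rik on the other strand, and 0.399% of its 75-base stretches occur there.

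**Figure D2:**
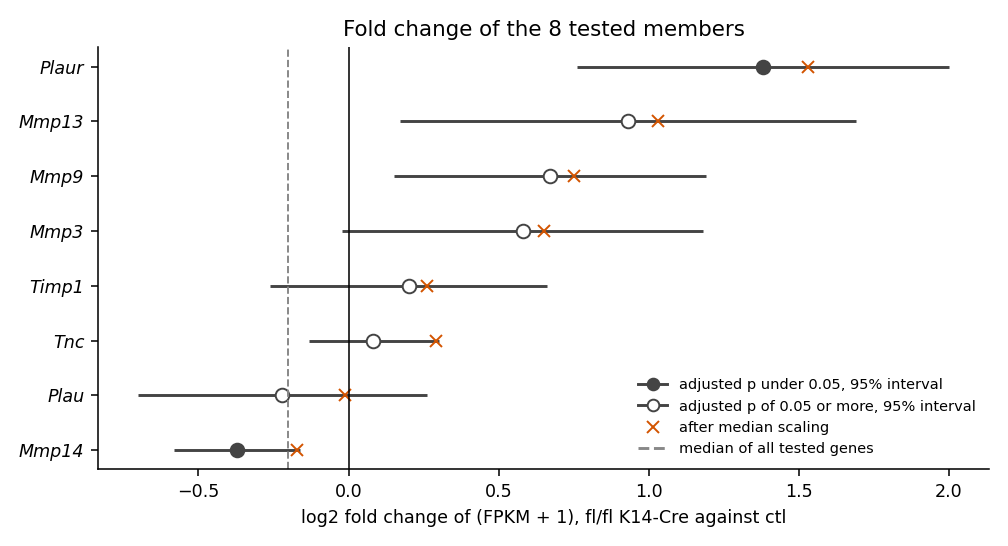
Log2 fold change of (FPKM + 1), Skiv2l fl/fl K14-Cre against Skiv2l ctl, on the x axis for the 8 tested members on the y axis. Circles with lines are the limma estimate and its 95% interval, filled at an adjusted p under 0.05; crosses are the estimate after median scaling, and the dashed line is the median of all tested genes, -0.20. Plaur at 1.38 and Mmp14 at -0.37 are the filled points.

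Knockout replicate 1 was above replicate 2 in 7 of the 9 members, all but Timp1 and Mmp14. On the log2(FPKM + 1) scale it was higher by 0.88 for Mmp13, 0.77 for Plaur, 0.66 for Mmp3, 0.54 for Mmp9 and 0.51 for Plau, against a median absolute difference of 0.14 between these libraries over all tested genes. Replicate 1 exceeded replicate 2 by at least as much as for Mmp13 in 0.58% of all tested genes, and by at least as much as for Plaur in 0.911%. For Tnc, at a difference of 0.14, this share was 30.8%. Knockout replicate 2 had 16138 genes above 0.5 FPKM, against 17384 in knockout replicate 1 and 17761 and 17638 in the controls. Control replicate 2 was above control replicate 1 in 8 of the 9 members, the exception being Timp1, with Mmp13 differing by 0.47 and Plau by 0.37 against a median absolute difference of 0.11. How many of all tested genes had the same order of replicates, by any amount, was not counted. Mmp13 stood at 1.61 and 1.79 times the FPKM of Mmp3 in control and at 2.01 and 2.04 times in knockout epidermis. This ratio was higher in both knockout libraries than in both controls, at low levels of both genes, and its difference between genotypes was not tested.

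**Figure D3:**
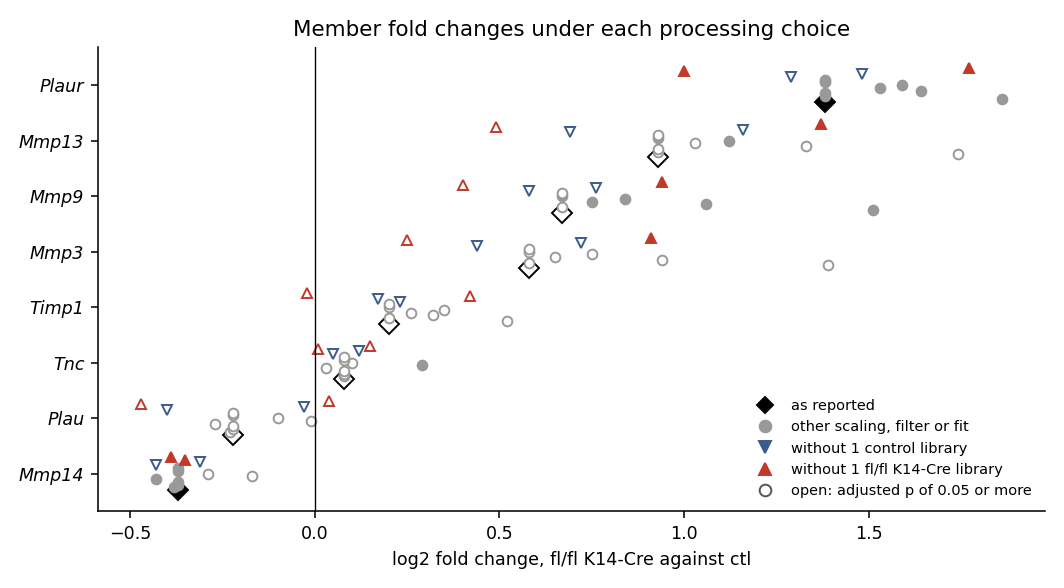
Log2 fold change, Skiv2l fl/fl K14-Cre against Skiv2l ctl, on the x axis for the 8 tested members on the y axis under each processing choice. Black diamonds are the values reported, grey circles are other scalings, filters, pseudocounts or fits, and triangles leave out 1 library; open symbols have a limma adjusted p of 0.05 or more. Plaur lies between 1.0 and 1.86 in all of them, and Plau and Timp1 lie on both sides of 0.

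Mmp3, Mmp10 and Mmp13 belong to a cluster of 10 metalloproteinase genes on chromosome 9 that spans 427 kb, from 7272514 to 7699585. The summed FPKM of the cluster was 0.901 and 1.95 in control and 6 and 2.45 in knockout epidermis, and 3 of its genes, Mmp13, Mmp3 and Mmp1b, passed the filter. Mmp1b is a metalloproteinase gene next to Mmp12 and the 1 gene of the cluster on the minus strand. It was listed at 0 in both controls and at 0.565 and 0.362 FPKM in knockout epidermis. Mmp1b passed the filter only through knockout replicate 1. It was called higher (limma adjusted p = 0.0418), and the call was lost with the replicate block (adjusted p = 0.0631) and whichever of the 4 libraries was left out (adjusted p from 0.0629 to 0.138). Exons of Mmp1b and Mmp12 share 157 bases on opposite strands, and 12.8% of the 75-base stretches of Mmp1b occur in Mmp12 or Mmp1a, so the division of reads among them is uncertain. Mmp1a was listed at 0 in all libraries, and Mmp12 had 0.161 and 0.418 FPKM in control and 0.386 and 0.138 in knockout epidermis. Mmp8, Mmp27, Mmp20 and Mmp7 reached at most 0.234 FPKM in any library.

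The files give coverage and no read counts, so numbers of reads behind these low levels were estimated. Coverage multiplied by transcript length gave, for the 2673-base transcript of Mmp13, 44.1 and 127 reads of 100 bases in control and 446 and 174 in knockout epidermis. For Mmp3 it gave 18.5 and 47.8 reads in control and 150 and 57.4 in knockout epidermis, and for Mmp10 12.8, 17.3, 37.6 and 11.8 in the same order of libraries. For Mmp1b it gave 47.8 and 31.1 reads in knockout epidermis. Both controls list Mmp1b at 0. A listed 0 need not mean that no RNA was there, since the division of reads among Mmp1b, Mmp12 and Mmp1a is uncertain. All 37 mitochondrial genes, which every cell uses, are listed at 0 too, but a whole genome at 0 says nothing about a nuclear gene such as Mmp1b. AP-1 letters occurred in the promoter windows of 7 of the 10 genes of the cluster, Mmp13, Mmp3, Mmp10, Mmp1b, Mmp1a, and 1 start each of Mmp7 and Mmp12, and they were not found in those of Mmp8, Mmp27 and Mmp20.

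**Figure D4:**
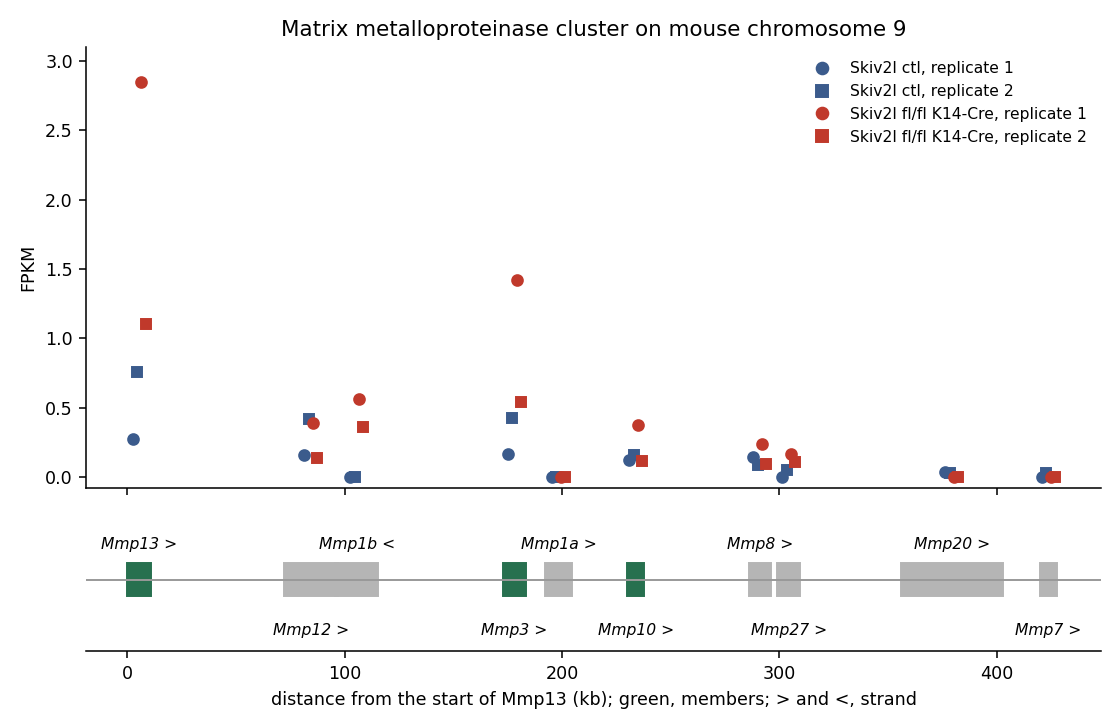
FPKM (upper y axis) of each gene of the metalloproteinase cluster in the 4 libraries, at the distance in kb from the start of Mmp13 (x axis). The lower strip shows gene extents to scale, with members in green and other genes in grey; Mmp13 and Mmp3 hold the highest points, both from knockout replicate 1 (2.85 and 1.42 FPKM), and the control points of Mmp1b lie at 0.

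The genes whose pattern over the 4 libraries was most like that of Plaur were Krt90 and Plin2, at Euclidean distances of 0.145 and 0.175 in log2(FPKM + 1) after the control mean was subtracted. Krt90 encodes a keratin and had 0.0738 and 0.184 FPKM in control and 2.56 and 1.12 in knockout epidermis. Plin2, which coats lipid droplets, had 7.78 and 9.81 FPKM in control and 30.4 and 16.7 in knockout epidermis. Both were highest in replicate 1, like Plaur. Nearest to Mmp14 were Erbin (distance 0.0116), with 50.6 and 54.7 FPKM in control and 40 and 40.9 in knockout epidermis, and Atxn7l3b (distance 0.0158), with 36 and 39 FPKM in control and 28.6 and 29.1 in knockout epidermis.

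Genes that work with the members were read from 6 lists of 88 genes, of which 64 were tested. The lists were chosen with earlier results of these data known. The shares called, here and for each list below, therefore describe the lists and are no test of them. In the 6 lists 20 genes (31.2%) were called higher, 16 (25%) lower and 28 neither, with a median log2 fold change of 0.02. Of all tested genes 8.99% were called higher and 25.4% lower, so the share called lower in the lists was close to that background. After median scaling 25 of the 64 tested genes of the lists were called higher and 10 lower. Of all 13609 tested genes 1894 (13.9%) were then called higher and 1623 (11.9%) lower. The counts moved with the libraries used: without control replicate 1 they were 6 higher and 6 lower, without control replicate 2 they were 7 and 7, and without knockout replicate 2 they were 16 and 9.

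Among 8 tested metalloproteinases outside the members, 1 was called higher, Mmp1b, and 3 lower (12.5% and 37.5%, beside 8.99% and 25.4% of all tested genes). The median log2 fold change of these 8 was -0.28. Mmp1b was among them only because knockout replicate 1 passed the filter. Besides Mmp2, the lower ones were the membrane-type Mmp15, with 3.58 and 3.51 FPKM in control and 1.34 and 1.54 in knockout epidermis (log2 fold change -0.90, limma adjusted p = 0.00382), and Mmp11, stromelysin-3 (log2 fold change -0.71, limma adjusted p = 0.0166). After median scaling 3 were called higher and 3 lower. Mmp2 kept its call whichever library was left out, Mmp15 lost its call without control replicate 1 (adjusted p = 0.051), and Mmp11 without either control (0.0915 and 0.074) and without knockout replicate 2 (0.0548). Of the 5 inhibitors listed, 2 were tested, and limma called 0 of them, with 0 at an unadjusted p under 0.05. Timp3, the matrix-bound inhibitor, was the most abundant, at 13.8 and 16.1 FPKM in control and 21.8 and 16.5 in knockout epidermis (log2 fold change 0.33, limma adjusted p = 0.137). It was called after median scaling (adjusted p = 0.0396). Timp1 amounted to 1.19% to 4.28% of the FPKM of Timp3, and Timp1, Timp2, Timp3 and Timp4 together summed to 19.1 and 21.7 FPKM in control and 27.2 and 21.5 in knockout epidermis.

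In the plasminogen system 2 of 10 tested genes were called higher and 2 lower (20% and 20%, beside 8.99% and 25.4% of all tested genes). Lrp1, the endocytic receptor that clears urokinase bound to its inhibitor, rose from 39 and 36.3 FPKM in control to 63.7 and 80.8 in knockout epidermis (log2 fold change 0.91, limma adjusted p = 0.004). Plat, tissue plasminogen activator, had 0.704 and 1.01 FPKM in control and 1.49 and 2.11 in knockout epidermis (log2 fold change 0.59, limma adjusted p = 0.043). F3, tissue factor, fell from 110 and 111 FPKM to 51.8 and 56.5 (log2 fold change -1.01, limma adjusted p = 0.00076). Plgrkt, a plasminogen receptor, fell as well (log2 fold change -0.49, limma adjusted p = 0.0165), and this call was lost with median scaling (adjusted p = 0.0775). Without 1 library, F3 was called every time, Lrp1 lost its call without control replicate 2 (adjusted p = 0.0568), and Plat and Plgrkt lost theirs without control replicate 1 (0.195 and 0.07), control replicate 2 (0.101 and 0.132) or knockout replicate 2 (0.149 and 0.0512). Anxa2, part of another plasminogen receptor and the most abundant gene of the list, had 574 and 553 FPKM in control and 497 and 502 in knockout epidermis (limma adjusted p = 0.151). Plg, plasminogen itself, was listed at 0 in 3 libraries and at 0.0435 FPKM in control replicate 1.

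Of 10 tested ADAM and ADAMTS proteases, 5 were called higher and 2 lower (50% and 20%, beside 8.99% and 25.4% of all tested genes). The number higher was 3 without control replicate 1, 2 without control replicate 2 and 3 without knockout replicate 2, and the number lower was 0, 1 and 1 in the same fits. Adamts5, an aggrecanase, rose from 0.131 and 0.268 FPKM in control to 4.46 and 5.28 in knockout epidermis (log2 fold change 2.29, SE 0.15, limma adjusted p = 0.000344). Adamts5 passed the filter only through the knockout libraries. Its neighbour on chromosome 16, Adamts1, rose from 15.3 and 13.9 to 35.3 and 27.3 FPKM (log2 fold change 1.04, limma adjusted p = 0.00333). Adam8 rose from 6.72 and 6.76 to 18.7 and 16.4 FPKM (log2 fold change 1.26, limma adjusted p = 0.000778). Adam15, the most abundant, rose by a log2 fold change of 0.33 (limma adjusted p = 0.0435), and Adamts9 fell by 0.86 on the log2 scale (limma adjusted p = 0.00293). Adamts5 and Adam8 kept their calls whichever library was left out. Adamts1 lost its call without control replicate 2 (adjusted p = 0.0519), Adamts9 without control replicate 1 (0.0552), and Adam15 without control replicate 1 (0.203), control replicate 2 (0.156) or knockout replicate 2 (0.107). Unlike the secreted metalloproteinases among the members, Adamts5 was higher in knockout replicate 2 than in knockout replicate 1.

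Wound matrix proteins had 3 of 18 tested genes called higher and 8 lower, and 3 higher and 4 lower after median scaling. The first of these are 16.7% and 44.4% of the tested list, beside 8.99% and 25.4% of all tested genes. Without control replicate 1 the counts were 0 higher and 3 lower, without control replicate 2 they were 1 and 2, and without knockout replicate 2 they were 1 and 4. Has3, a hyaluronan synthase, fell from 33.9 and 36 FPKM in control to 14.5 and 12.4 in knockout epidermis (log2 fold change -1.32, limma adjusted p = 0.000672). Vcan, the proteoglycan versican (log2 fold change -1.0, limma adjusted p = 0.00295), Postn, periostin (-0.93, adjusted p = 0.00602), and Fn1, fibronectin (-0.61, adjusted p = 0.00307), were lower too and kept their calls after median scaling. Has3 and Fn1 kept their calls with any 1 library left out. Vcan lost its call without control replicate 2 (adjusted p = 0.0542), and Postn without control replicate 1 (0.0711) or 2 (0.0528). Tnc, which belongs to the same class of proteins, was described above with the members and was called in neither direction.

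Integrins and matrix receptors had 9 of 16 tested genes called higher and 1 lower, and 10 higher and 0 lower after median scaling. The first of these are 56.2% and 6.25% of the tested list, beside 8.99% and 25.4% of all tested genes. The number called higher was 2 without control replicate 1, 4 without control replicate 2 and 6 without knockout replicate 1, and the number lower was 0 without control replicate 2. Itga2, Itga5 and Itgb1, integrin subunits called higher, each lost the call in 3 of the 4 fits that left out 1 library. Itgb6, the subunit of an integrin that binds fibronectin and tenascin-C, rose from 3.12 and 2.96 FPKM in control to 8.69 and 8.35 in knockout epidermis (log2 fold change 1.24, limma adjusted p = 0.000864). Itga3, a laminin receptor subunit, rose from 35.4 and 33.7 to 73.6 and 64.8 FPKM (log2 fold change 0.98, limma adjusted p = 0.00123). Cd44, the hyaluronan receptor, rose from 87.8 and 95.7 to 202 and 157 FPKM (log2 fold change 0.95, limma adjusted p = 0.00409), and Sdc1, syndecan-1, from 117 and 120 to 219 and 184 FPKM (log2 fold change 0.76, limma adjusted p = 0.00396). Itgb6 and Itga3 kept their calls with any 1 library left out, and Cd44 lost its call without control replicate 1 (adjusted p = 0.0574) and Sdc1 without control replicate 1 (0.0549) or 2 (0.0508).

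**Figure D5:**
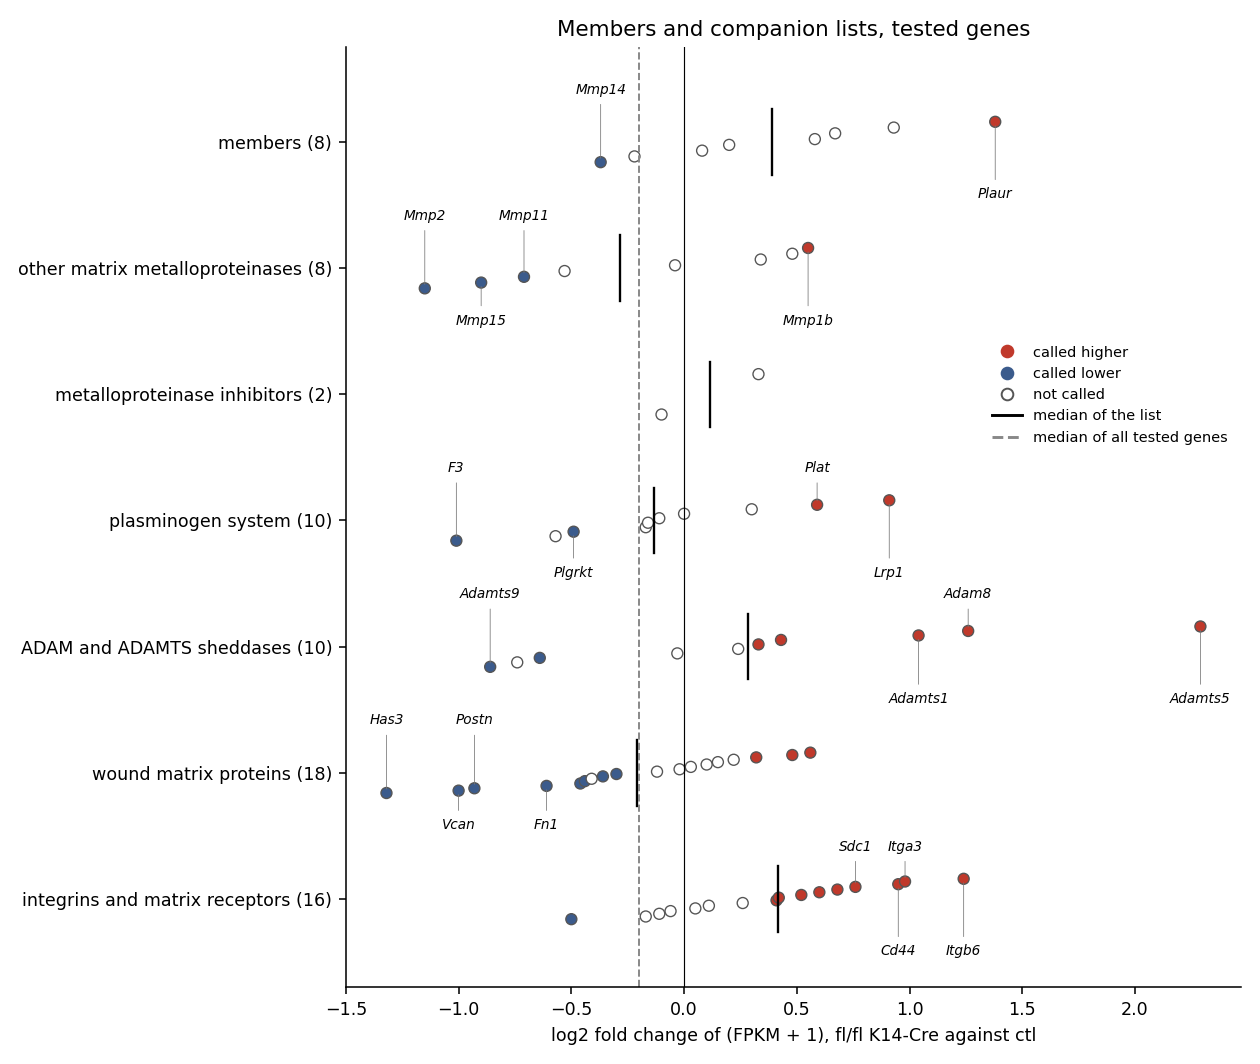
Log2 fold change of (FPKM + 1), Skiv2l fl/fl K14-Cre against Skiv2l ctl, on the x axis for the tested genes of the members and of 6 lists of related genes (rows, with the number tested). Red points were called higher, blue points lower and open points neither; short vertical lines are list medians and the dashed line is the median of all tested genes, -0.20. Points are spread within a row for legibility only, and integrins and matrix receptors show 9 red points and 1 blue point.

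Marker sums of other cell types of skin were far below the keratinocyte sum in every library, and such sums do not measure numbers of cells. Markers of T cells summed to 1.63 to 2.98 FPKM, those of mast cells to 6.63 to 7.83, nearly all of it Kit, which melanocytes also make, and those of endothelial cells to 0.495 to 0.75. The 7 macrophage markers summed to 25.8 and 37 FPKM in control and to 24.1 and 18.7 in knockout epidermis, and Csf1r was called lower (limma adjusted p = 0.0131, but 0.104 without control replicate 2 and 0.0516 without knockout replicate 2). For Langerhans cells the markers H2-Ab1, Cd74 and Cd207 summed to 17.4 and 20.4 FPKM in control and to 5.28 and 5.27 in knockout epidermis, although Cd207, the defining one, did not exceed 0.0417. No marker list other than the neutrophil one had a higher sum in both knockout libraries than in both controls. The neutrophil list did so through Cxcr2, and its other markers overlapped between genotypes or were listed at 0 in all libraries.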

How the data were processed

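Total RNA of epidermis from 4 mouse pups at postnatal day 0 was sequenced, 2 Skiv2l fl/fl K14-Cre (knockout) and 2 Skiv2l ctl (control), grouped by the genotype in the sample labels. Reads were processed with the Astrocyte workflow of the authors' institution on GRCm38 (submitters' processing notes), and 1 table per library was deposited. The FPKM values deposited by the authors count fragments relative to the length of the transcript and the size of the library. TPM values, also deposited, add up to 1 fixed total in each of the libraries. As coverage signal the authors deposited the average depth of reads over the bases of a gene. The aligner and the strandedness of counting are not given in the sources used here, and without read counts no counting interval could be computed.

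FPKM was summed per gene identifier. Identifiers were matched to GENCODE M21 without their version, with the same start and end for 54029 of 54752 genes, and 21921 were protein-coding. Those with FPKM above 0.5 in at least 1 library (13609) were tested two-sided on log2(FPKM + 1) by limma (version 3.58.1, R 4.3.3) through lmFit and eBayes with an intensity trend, and p-values were adjusted by Benjamini-Hochberg over all of them. The fit was tested on simulated data first. Depth was the common ratio of coverage to FPKM. For genes with 1 annotated transcript, coverage multiplied by transcript length gave aligned bases, and their most frequent value in low genes, 100, was taken as the read length. Precision is limited by the 2 pups in each genotype.

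The members and the lists of related genes and markers were chosen with earlier results of these data known. The genes named are the members, Skiv2l, the metalloproteinase cluster, up to 4 called genes per list with the largest log2 fold change whose knockout libraries lie on one side of both controls, the gene of each list with the highest mean FPKM, the 2 nearest patterns of each called member, and genes whose exons overlap a member. A gene that the rule names is not reported here. Plg, Kit, Cxcr2, Itga2, Itga5, Itgb1, the markers given with values and the genes of the closing section were named after their values were seen. Ccn1 and Ccn2 are listed under the older symbols Cyr61 and Ctgf. Shared 75-base stretches were counted on GENCODE M21 transcripts. Promoter windows and their letters are from RefSeq (GRCm38.p6).

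The alternatives were TPM in place of FPKM, median scaling, a pseudocount of 0.1, quantile normalization, FPKM above 1 in at least 2 libraries, no filter, eBayes without the trend, a block for the replicate number, and leaving out each library.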

Additional observations from a re-analysis of the deposited data

How the results depend on the processing

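The number of members called higher, 1 as reported, was 2 with a pseudocount of 0.1, 2 with TPM, 3 with median scaling and 3 with quantile normalization, and 0 to 4 when 1 library was left out, 0 without either control and 4 without knockout replicate 2. The number called lower, 1 as reported, was 0 with median scaling, 0 with quantile normalization and 0 to 1 when 1 library was left out. Of the related genes 20 were called higher, 13 without a filter (every gene with FPKM above 0 in at least 1 library) and 6 to 16 without 1 library, and 16 were called lower, 10 with median scaling and 6 to 17 without 1 library. Without knockout replicate 2 the log2 fold change turned to 0.04 for Plau and to -0.02 for Timp1, and both missed the threshold there as in the reported fit; over all leave-one-out fits it ran from -0.47 to 0.04 for Plau and from -0.02 to 0.42 for Timp1. A genotype left with 1 library was assumed to vary like the other. The cause of these shifts was not tested, except that leaving out a library leaves fewer residual degrees of freedom.

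The pups share only a replicate number across genotypes, and the deviations of same-numbered libraries correlated at -0.08 over 13609 genes. With the replicate number as a block, 3 members were called higher and 1 lower, and of the related genes 18 were called higher and 17 lower.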

Other observations

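Lama3 and Lamb3, which encode chains of basement membrane laminins, and the integrin genes Itgb4 and Itga6 were chosen here after their values were seen. Lama3 rose from 50.4 and 47.9 FPKM in control to 59.8 and 63.6 in knockout epidermis (log2 fold change 0.32 ± 0.08 SE, limma adjusted p = 0.0299). Lamb3 had 69.2 and 72 FPKM in control and 69.2 and 69.9 in knockout epidermis (limma adjusted p = 0.852). Lamb3 overlapped between genotypes, and the difference between Lama3 and Lamb3 was not tested. Lama3 lost its call without control replicate 1 (adjusted p = 0.116), control replicate 2 (0.166) or knockout replicate 2 (0.0749). Itgb4, the hemidesmosome subunit, rose from 81.2 and 88.9 to 137 and 122 FPKM (log2 fold change 0.60, limma adjusted p = 0.00662, but 0.0711 without control replicate 1). Its partner Itga6 had 114 and 118 FPKM in control and 108 and 98.2 in knockout epidermis (log2 fold change -0.17, limma adjusted p = 0.175). Both of its knockout values were below the controls, as in 55.3% of all tested genes. Its log2 fold change was close to the median of all tested genes, -0.20, and was 0.04 after median scaling. The difference between Itgb4 and Itga6 was not tested.

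Serpinb2, the intracellular plasminogen activator inhibitor, also picked after its values were seen, was not called. It was more abundant than Plau in every library, with 68.8 and 77.3 FPKM in control and 103 and 52 in knockout epidermis (limma adjusted p = 0.993). Knockout replicate 1 was above both controls and replicate 2 below both.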
